A study of Rattus norvegicus with 5 samples.

Results

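The genes described here encode the non-collagen proteins of the extracellular matrix: matricellular proteins, elastic fibre proteins and the lysyl oxidases that cross-link them, laminins and the other basement membrane proteins, and the secreted proteoglycans. They were chosen by name, 43 in all, with earlier results of these data known. At least 1 probe set annotated with the gene's symbol alone was found for 41 of them, out of 14217 genes so annotated on the array. Tnxb and Thbs1 have no such probe set, so their levels were not analysed here. Each gene was read from its brightest probe set over all arrays, and its further probe sets served as a check.

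The tissue was the mesenteric fat that surrounds the pancreas of male Wistar rats, caged individually and 7 weeks old at the start. Cafeteria samples came from 2 rats that ate cafeteria food, 66% of its calories being fat, for 30 days, the obese group. Standard samples came from 3 rats that ate standard chow, 8% of its calories being fat, for the same time, the lean group. Each sample was hybridised to 1 Affymetrix rat expression array, and the samples are described as independent. The labels name no treatment other than the diet.

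As background, the matrix is the protein scaffold that cells secrete around themselves. Fibrillin microfibrils and elastin, assembled with fibulins and joined by lysyl oxidases, let tissue stretch and recoil, while small leucine-rich proteoglycans bind collagen fibrils and set their spacing. Each fat cell is wrapped in a basement membrane of laminin, nidogen, perlecan and collagen IV, and matricellular proteins such as periostin and SPARC sit in the matrix to adjust how cells attach to it and how fibrils form. In obese fat the matrix is known to be remodelled as fat cells enlarge.

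Values are log2 expression levels, so a difference of 1 is a doubling. They cannot be set against each other between genes, because each probe set has its own brightness. The arrays had medians of 5.70 to 5.75. In whole tissue, more cells of a type and more RNA per cell cannot be told apart. The defining fat cell markers were bright on every array: adiponectin (Adipoq) read 13.11 and 13.28 in cafeteria samples, against 12.94, 13.09 and 13.08 in standard samples. The mean of 12 fat cell markers was 11.91 and 12.12 in cafeteria samples, against 11.45 to 11.64 in standard samples. All 12 had a higher cafeteria mean, and their part in the matrix values was not tested. The library labelled standard replicate 1 also held pancreatic acinar transcripts. Pancreatic lipase (Pnlip) read 4.45 on both cafeteria arrays, against 10.11, 4.23 and 4.45 on standard replicates 1, 2 and 3. Standard replicate 3 stood apart for smooth muscle: the mean of 13 smooth muscle and pericyte markers was 8.65 and 8.28 in cafeteria samples, against 9.12, 8.04 and 10.10 in standard replicates 1, 2 and 3. Counts over the matrix genes without either array are given further on.

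The promoters of 6 genes that the results turn on are shown here: Postn, Sparc, Fbln2, Aspn and Ogn, which read higher in cafeteria samples, and Sparcl1, the relative of Sparc that read lower. Each is the 250 bases before the annotated start, from RefSeq on build GRCr8, written 5′ to 3′ along the gene. Capitals mark matches, on either strand, to any of 5 short motifs. The TATA box was searched as TATAAA. For the GC box of Sp1-type factors the letters were GGGCGG. Sites of AP-1, the Fos and Jun factor, were searched as TGANTCA. For the TEAD factors that work with YAP the letters were CATTCC. The last was the plain CCAAT box. The Postn window lies on chr2:140677811-140678060 (plus strand), Sparc on chr10:40038817-40039066 (minus strand), Sparcl1 on chr14:5937234-5937483 (plus strand), Fbln2 on chr4:125261409-125261658 (plus strand), Aspn on chr17:15310470-15310719 (minus strand) and Ogn on chr17:15258996-15259245 (minus strand).

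Postn: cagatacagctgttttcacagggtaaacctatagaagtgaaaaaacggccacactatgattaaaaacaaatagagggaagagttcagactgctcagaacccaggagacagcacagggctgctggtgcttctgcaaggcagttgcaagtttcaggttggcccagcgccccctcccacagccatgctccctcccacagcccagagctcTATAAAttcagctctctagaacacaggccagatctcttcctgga
Sparc: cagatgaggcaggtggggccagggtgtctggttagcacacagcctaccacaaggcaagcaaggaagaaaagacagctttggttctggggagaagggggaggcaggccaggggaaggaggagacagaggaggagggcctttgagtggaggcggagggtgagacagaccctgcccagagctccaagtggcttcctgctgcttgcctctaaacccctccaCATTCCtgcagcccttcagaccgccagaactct
Sparcl1: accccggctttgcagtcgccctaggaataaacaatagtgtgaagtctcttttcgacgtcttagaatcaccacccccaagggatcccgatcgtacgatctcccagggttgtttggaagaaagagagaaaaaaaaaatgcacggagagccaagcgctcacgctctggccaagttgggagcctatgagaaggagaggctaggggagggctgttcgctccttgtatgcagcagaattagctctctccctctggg
Fbln2: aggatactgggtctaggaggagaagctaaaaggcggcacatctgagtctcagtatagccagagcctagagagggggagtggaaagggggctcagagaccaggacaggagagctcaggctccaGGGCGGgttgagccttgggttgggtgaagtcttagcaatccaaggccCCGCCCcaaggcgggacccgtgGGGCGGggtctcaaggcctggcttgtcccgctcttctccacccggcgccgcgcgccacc
Aspn: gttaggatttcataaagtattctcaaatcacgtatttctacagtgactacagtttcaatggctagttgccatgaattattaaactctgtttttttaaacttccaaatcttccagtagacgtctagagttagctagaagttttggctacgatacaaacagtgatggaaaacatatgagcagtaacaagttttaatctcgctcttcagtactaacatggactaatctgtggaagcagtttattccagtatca
Ogn: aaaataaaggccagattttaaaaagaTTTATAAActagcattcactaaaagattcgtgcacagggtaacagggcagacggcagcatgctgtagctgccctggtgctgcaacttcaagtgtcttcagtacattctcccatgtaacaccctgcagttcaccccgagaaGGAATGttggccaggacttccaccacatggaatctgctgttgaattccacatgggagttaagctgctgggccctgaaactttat

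In these windows Postn had a TATAAA from 44 to 39 bases before its start. The first capital stretch in Ogn is 2 overlapping TATA matches, 1 on each strand, from 224 to 217 bases before the start, and its other match is to the TEAD motif. Fbln2 held 3 GC box matches and Sparc 1 TEAD match, while the Sparcl1 and Aspn windows held none of the 5. Promoters were found for 31 of the 43 genes, among them Thbs1, whose level was not measured. The GC box stood in 19 of these 31, against 30.5% of all 33469 promoters. The TEAD motif stood in 8 of 31, against 12.1% of all, and the TATA box in 5 of 31, against 12.9%. The CCAAT box was found in 8 of 31, against 34.0%, and the AP-1 motif in 1 of 31, against 6.34%. These shares describe the windows and carry no test. Of the 8 genes with a promoter, a higher level and an unadjusted p under 0.05 in the comparison of diets (given further on), 4 held the TEAD motif, 2 the TATA box, 2 the GC box, 1 the CCAAT box and 0 the AP-1 motif.

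The comparison was cafeteria diet against standard chow, which asks how the matrix transcripts of this depot differ in obese rats. At an unadjusted p under 0.05 in limma, 10 of the 41 genes were higher in cafeteria samples and 1 was lower. Of all genes, 6.73% were higher and 6.88% lower at that level. The higher genes included Postn, the microfibril protein gene Mfap4, Fbln2, the proteoglycans Aspn and Ogn, Sparc and the lysyl oxidases Lox and Loxl1. These differed by 0.43 to 1.14 log2 units, and the remaining higher genes, Fbn1 and Nid1, by 0.30 and 0.23. The lower gene was Sparcl1, with a difference of -0.51. Of the laminins, which line fat cells, 5 of 6 differed by less than 0.1, and the share of all genes that did so was not counted. For 9 of the 41 genes, 22.0% against 8.51% of all genes, the 2 cafeteria rats lay on opposite sides of all standard rats. No gene was called at an adjusted p under 0.05 in limma (Benjamini-Hochberg over 21729 probe sets), where 0% of probe sets were called. Sparc had the smallest adjusted p of the 41 genes, 0.253.

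All 41 genes passed the filter on dim probe sets, and for all 41 both diet means lay above it. A higher mean in cafeteria samples was found for 24 of 41 genes, against 49.2% of the 11509 genes measured, and a lower one for 17. At an unadjusted p under 0.05 in limma there were 10 higher genes, 24.4% of 41 against 6.73% of all genes, and 1 lower gene, 2.44% against 6.88%. Both cafeteria arrays lay above every standard array for 12 genes, 29.3% against 14.7% of all genes, and below every standard array for 3, 7.32% against 14.7%. The median difference was 0.10 log2 units over the 41 genes and -0.0027 over all genes. These shares describe the list, which was chosen with earlier results of these data known, and carry no test of their own. The plot of diet differences by role shows that the higher genes came from several roles.

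**Figure D1:**
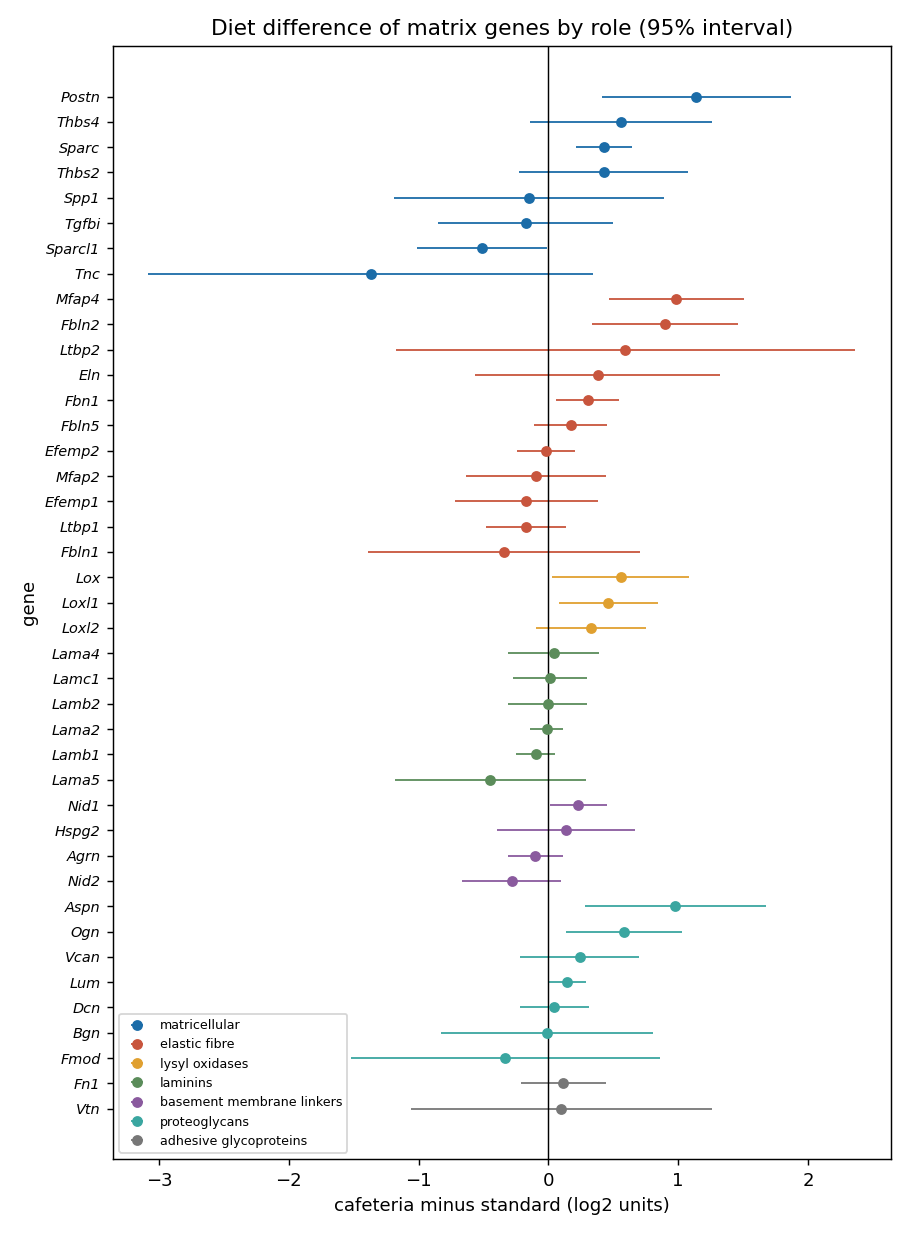
Difference in log2 level, cafeteria minus standard (x axis), for each of the 41 genes (y axis), with points coloured by role and bars for the 95% interval of the limma fit. Postn, Mfap4, Aspn and Fbln2 lie farthest right at 1.14, 0.98, 0.98 and 0.90, Tnc lies farthest left at -1.37 with a wide interval, and 5 of the 6 laminins lie within 0.1 of 0.

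Among the matricellular genes, 4 of 8 were higher and 4 lower in cafeteria samples, with a median difference of 0.14, which was -0.03 without cafeteria replicate 1. Periostin (Postn), a secreted protein that binds collagen and integrins and is known from fibrosis, read 10.32 and 11.17 in cafeteria samples, against 9.56, 9.75 and 9.49 in standard samples. Both cafeteria arrays lay above all standard arrays, and the second was clearly the higher. The difference was 1.14 ± 0.27 (SE) log2 units, 2.20-fold, with a 95% interval of 0.41 to 1.87 (limma, adjusted p = 0.281). Leaving out cafeteria replicate 1 gave 1.56, and leaving out cafeteria replicate 2 gave 0.72. A two-sided exact permutation test for Postn gave p = 0.1, the lowest value that 2 against 3 samples can give, so no single gene can pass that test here.

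Sparc encodes the collagen-binding protein SPARC, also called osteonectin. It read 13.10 and 13.24 in cafeteria samples, against 12.77, 12.80 and 12.65 in standard samples. The arrays of each diet lay close together and the diets did not overlap. The difference was 0.43 ± 0.08, 1.35-fold (limma, adjusted p = 0.253), and the other Sparc probe set gave 0.67 ± 0.26. Its relative Sparcl1, or hevin, went the other way, with 10.94 and 11.35 in cafeteria samples, against 11.65, 11.44 and 11.88 in standard samples. Every cafeteria array lay below every standard array for Sparcl1, a difference of -0.51 ± 0.19 (limma, adjusted p = 0.389), and -0.31 without cafeteria replicate 1. Sparcl1 is known to be made by endothelial and mural cells among others. The mean of 13 endothelial markers was 8.15 and 8.61 in cafeteria samples, against 8.73, 8.73 and 8.84 in standard samples, and all 13 had a lower cafeteria mean. The smooth muscle and pericyte list, given above, was lower in cafeteria samples for 11 of 13 genes, but without overlap for only 2. Its mean on standard replicate 2, 8.04, lay below that on both cafeteria arrays. The part of either list in the Sparcl1 difference was not tested.

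Tenascin-C (Tnc), a large glycoprotein made in wounds and inflamed tissue, read 5.62 and 4.19 in cafeteria samples, against 6.22, 5.52 and 7.07 in standard samples. The diets overlapped, and the arrays of each diet were more than 1 log2 unit apart. The difference of -1.37 ± 0.64 was the largest in size of the 41 genes and had an interval of -3.08 to 0.34 (limma, adjusted p = 0.467). Leaving out cafeteria replicate 1 gave -2.09, leaving out cafeteria replicate 2 gave -0.65, and leaving out standard replicate 3, with the highest smooth muscle markers, gave -0.97.

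The thrombospondins are adhesive glycoproteins that bind growth factors and calcium. Thbs4 read 5.20 and 5.17 in cafeteria samples, against 4.56, 4.24 and 5.08 in standard samples, so the diets did not overlap but standard replicate 3 came close. Its difference was 0.56 ± 0.26 at a low level (limma, adjusted p = 0.468). Thbs2 differed by 0.43 ± 0.24, with cafeteria replicate 2 among the standard arrays. Osteopontin (Spp1), a matrix protein and cytokine made by macrophages in obese fat, had the same value on both cafeteria arrays, 6.06, against 6.08, 5.66 and 6.91 in standard samples. Its difference of -0.15 had an interval of -1.19 to 0.89, so neither a lower nor a higher level in cafeteria samples could be excluded. The Spp1 difference was 0.20 without standard replicate 3 and -0.43 without standard replicate 2. Tgfbi, an integrin ligand induced by TGF-beta, differed by -0.18 ± 0.25.

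**Figure D2:**
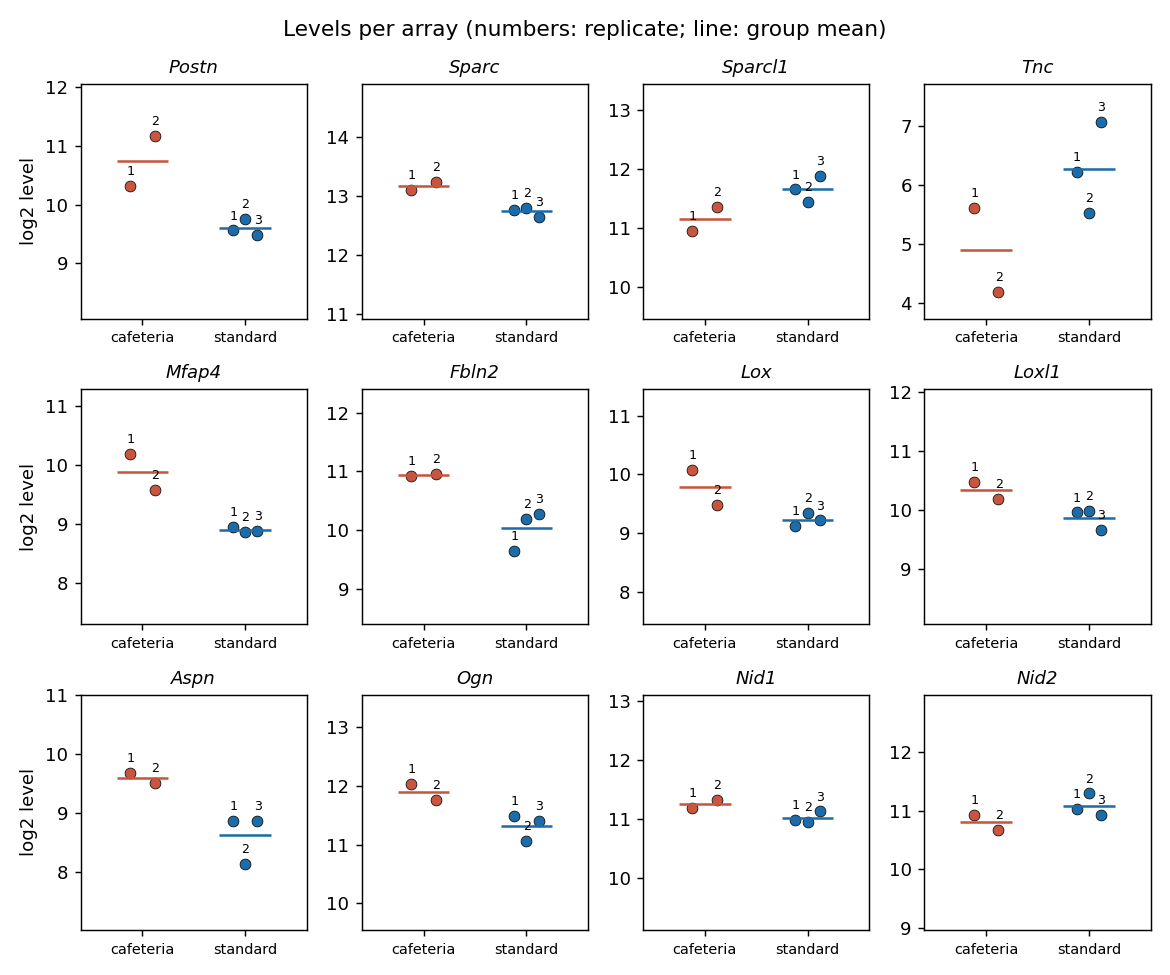
Log2 level (y axis, each panel spanning the same range of log2 units) on the cafeteria and standard arrays (x axis) for 12 genes, with 1 point per array, its replicate number beside it and a line at each diet's mean. The diets do not overlap in any panel but that of Tnc; Sparcl1 and Nid2 are the panels without overlap in which cafeteria samples lie lower.

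The elastic fibre genes were divided too, with 6 of 11 higher and a median difference of 0.17, which was -0.015 without cafeteria replicate 1. The higher ones included proteins of the microfibril and its partners. Mfap4, which binds fibrillin and elastin, read 10.19 and 9.57 in cafeteria samples, against 8.95, 8.86 and 8.88 in standard samples. The standard arrays were nearly equal and both cafeteria arrays lay well above them. The difference was 0.98 ± 0.20, 1.98-fold, with a 95% interval of 0.46 to 1.51 (limma, adjusted p = 0.262). Fibulin-2 (Fbln2), which links fibrillin, elastin and basement membrane proteins, read 10.92 and 10.96 in cafeteria samples, against 9.65, 10.19 and 10.28 in standard samples. Here the cafeteria arrays were the equal ones. The difference was 0.90 ± 0.21, 1.86-fold (limma, adjusted p = 0.280), and 0.70 without standard replicate 1, which held acinar transcripts.

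Fibrillin-1 (Fbn1), the main protein of the microfibril, read 11.64 and 11.81 in cafeteria samples, against 11.31, 11.49 and 11.47 in standard samples. It was higher on both cafeteria arrays by a small amount, 0.30 ± 0.09 (limma, adjusted p = 0.334), and its other probe set gave 0.36 ± 0.13. Elastin (Eln), the rubber-like core of the fibre, overlapped between diets on its brighter probe set, with 8.25 and 9.21 in cafeteria samples, against 8.59, 7.98 and 8.48 in standard samples. On the second Eln probe set the diets did not overlap, and the difference was 0.72 ± 0.22 against 0.38 ± 0.35 on the brighter one. Fibulin-5 (Fbln5), which helps elastin assemble, differed by 0.17 ± 0.11. Cafeteria replicate 2 alone gave 0.32 for it and cafeteria replicate 1 alone 0.02.

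The other elastic fibre genes did not show a common direction. Ltbp2, a fibrillin-binding relative of the latent TGF-beta binding proteins, read 9.30 and 7.45 in cafeteria samples, against 8.41, 7.27 and 7.68 in standard samples. Cafeteria replicate 2 minus cafeteria replicate 1 was -1.85 log2 units, the widest gap of the 41 genes. Ltbp1, which tethers latent TGF-beta to the matrix, differed by -0.17 ± 0.12, Efemp1 by -0.17 ± 0.21 and Mfap2, a small microfibril protein, by -0.09 ± 0.20. Efemp2, or fibulin-4, needed for elastin cross-linking, differed by -0.02 ± 0.08, with an interval of -0.24 to 0.20. Fbln1 differed by -0.34 ± 0.39.

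All 3 lysyl oxidase genes, whose enzymes cross-link elastin and collagen, had a higher mean in cafeteria samples, with a median difference of 0.46. Lox read 10.08 and 9.49 in cafeteria samples, against 9.13, 9.35 and 9.22 in standard samples. The diets did not overlap, and the difference was 0.56 ± 0.20 (limma, adjusted p = 0.371). It was 0.26 without cafeteria replicate 1, and on the second Lox probe set, where the diets overlapped, it was 0.45 ± 0.23. Loxl1, the family member tied to elastic fibres, read 10.47 and 10.19 in cafeteria samples, against 9.96, 9.98 and 9.66 in standard samples, a difference of 0.46 ± 0.14 without overlap (limma, adjusted p = 0.340). Loxl2, which acts on basement membrane collagen, read 9.18 and 9.32 in cafeteria samples, against 8.76, 9.20 and 8.81 in standard samples. Standard replicate 2 lay between the cafeteria arrays for Loxl2, whose difference was 0.33 ± 0.16 (limma, adjusted p = 0.474).

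The laminin chains, which form the sheet of the basement membrane, differed little in size between diets. Their median difference was -0.0095, against -0.0027 over all genes, and 5 of 6 chains lay within 0.1 of 0. The share of all genes within 0.1 was not counted, and whether laminins differ from the other roles was not tested. The alpha-2 chain (Lama2) differed by -0.01 ± 0.05, with an interval of -0.14 to 0.12. Lama4, the alpha chain typical of fat cell and vessel basement membranes, had a difference of 0.04 ± 0.13 on the brighter of its probe sets and -0.30 ± 0.19 on the other. The gamma-1 chain (Lamc1) differed by 0.01 ± 0.11 and the beta-2 chain (Lamb2) by -0.0062 ± 0.12.

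For Lama2 the 3 standard arrays held an identical value, 9.37, and for Lamb2 both cafeteria arrays held 9.88, so their SEs may be too small. Such ties were common, as 11.7% to 14.7% of all probe sets held identical values on 2 arrays, depending on the pair. The beta-1 chain (Lamb1) was the laminin without overlap between diets, with 10.55 and 10.44 in cafeteria samples, against 10.57, 10.61 and 10.60 in standard samples. That difference was only -0.10 ± 0.06 (limma, adjusted p = 0.501), or -0.15 without cafeteria replicate 1 and -0.046 without cafeteria replicate 2. Lama5 was the exception in size, with 6.61 and 7.20 in cafeteria samples, against 7.12, 7.20 and 7.75 in standard samples. Its difference of -0.45 ± 0.28 (limma, adjusted p = 0.508) was -0.16 without cafeteria replicate 1 and -0.25 without standard replicate 3. Its other 2 probe sets were too dim to pass the filter and gave 0.12 and 0.04.

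Among the proteins that tie the basement membrane together, the 2 nidogens went opposite ways. Nid1, which bridges laminin and collagen IV, read 11.18 and 11.32 in cafeteria samples, against 10.98, 10.95 and 11.13 in standard samples. The difference was 0.23 ± 0.08 (limma, adjusted p = 0.379), and the second Nid1 probe set gave 0.46 ± 0.11, also without overlap. Nid2 read 10.93 and 10.68 in cafeteria samples, against 11.03, 11.29 and 10.93 in standard samples. Cafeteria replicate 1 and standard replicate 3 were almost equal for Nid2. The difference of -0.28 ± 0.14 (limma, adjusted p = 0.484) was -0.16 without cafeteria replicate 2 and -0.18 without standard replicate 2. Perlecan (Hspg2), the heparan sulphate proteoglycan of the basement membrane, differed by 0.14 ± 0.20 and by -0.044 without standard replicate 1. Agrin (Agrn), a relative of it, differed by -0.10 ± 0.08, by -0.053 without standard replicate 3 and by -0.15 without standard replicate 1.

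Of the secreted proteoglycans, 5 of 7 had a higher mean in cafeteria samples, with a median difference of 0.14. Asporin (Aspn), a small leucine-rich protein that binds collagen and TGF-beta, read 9.68 and 9.52 in cafeteria samples, against 8.86, 8.14 and 8.86 in standard samples. The cafeteria arrays lay above all standard arrays, of which standard replicate 2 was the low one and standard replicates 1 and 3 held an identical value. The difference was 0.98 ± 0.26, 1.97-fold, with a 95% interval of 0.28 to 1.68 (limma, adjusted p = 0.306), and the second probe set gave 0.90 ± 0.20. Osteoglycin (Ogn), also called mimecan, read 12.03 and 11.77 in cafeteria samples, against 11.49, 11.06 and 11.40 in standard samples. Its difference was 0.58 ± 0.17, 1.50-fold (limma, adjusted p = 0.321). The 3 further Ogn probe sets gave 0.53, 0.15 and 0.42, and the diets overlapped on the last 2.

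Aspn and Ogn are near neighbours on chromosome 17, with 1 coding gene, Omd, between them in the RefSeq gene table. Omd (osteomodulin) and Ecm2 are related leucine-rich genes, looked at after the values of Aspn and Ogn were seen. Omd differed by 0.19 ± 0.10, with 7.55 and 7.37 in cafeteria samples, against 7.37, 7.14 and 7.30 in standard samples. Ecm2 differed by 0.06 ± 0.16, with cafeteria arrays inside the standard range. Both differences were smaller than those of Aspn and Ogn.

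Lum and Dcn, adjacent on chromosome 7, encode lumican and decorin, the proteoglycans best known for spacing collagen fibrils. Lum read 11.53 on both cafeteria arrays, against 11.34, 11.37 and 11.44 in standard samples, a difference of only 0.14 ± 0.06 without overlap (limma, adjusted p = 0.407). Dcn differed by 0.04 ± 0.10, with an interval of -0.22 to 0.31. Versican (Vcan), a large hyaluronan-binding proteoglycan, differed by 0.24 ± 0.17, and by 0.10 without standard replicate 3. Its other probe sets past the filter gave 0.38 and 0.28. Of the adhesive glycoproteins, fibronectin (Fn1), which cells grip through integrins, differed by 0.11 ± 0.12, and by 0.02 without standard replicate 3.

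The 2 cafeteria rats disagreed on a group of matrix genes. For 9 of 41 genes, 22.0% against 8.51% of all genes, one cafeteria array lay above and the other below every standard array. For 5 of 41 genes, 12.2% against 1.95% of all genes, the cafeteria arrays were over 1 log2 unit apart. Biglycan (Bgn), a collagen-binding proteoglycan that also signals to immune receptors, read 11.24 and 10.25 in cafeteria samples, against 10.69, 10.79 and 10.77 in standard samples. Fibromodulin (Fmod), which guides collagen fibril assembly, read 11.86 and 10.46 in cafeteria samples, against 11.30, 11.46 and 11.72 in standard samples. Fbln1, which binds fibronectin and elastic fibres, read 8.62 and 7.34 in cafeteria samples, against 8.41, 8.27 and 8.28 in standard samples. For these, Tgfbi and Efemp1, cafeteria replicate 1 was the high array and cafeteria replicate 2 the low one.

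Vitronectin (Vtn), a plasma and matrix protein that cells bind through integrins, ran the other way, with 6.77 and 8.19 in cafeteria samples, against 7.29, 7.42 and 7.44 in standard samples. Its mean difference of 0.10 ± 0.44 therefore hides 2 large and opposite values, 0.81 for cafeteria replicate 2 alone and -0.61 for cafeteria replicate 1 alone. Lama4, Lamc1 and Lama2 also had cafeteria replicate 2 above and cafeteria replicate 1 below all standard arrays, by smaller amounts. Several marker lists divided the same arrays, among them that of the mesothelium, the cell sheet that covers mesenteric fat. The mean of 10 mesothelial markers was 9.36 and 8.52 in cafeteria samples, against 8.93, 8.86 and 8.72 in standard samples, and mesothelin (Msln) read 11.41 and 10.27 in cafeteria samples, against 10.76, 10.76 and 10.67 in standard samples. Cafeteria replicate 1 read higher than cafeteria replicate 2 for 10 of 10 mesothelial, 9 of 9 lymphocyte and 12 of 13 cell cycle markers. The same held for 11 of 13 macrophage markers. Cafeteria replicate 2 read higher for 13 of 13 endothelial and 11 of 12 fat cell markers. The part of mesothelial or other cells in the matrix values of these 2 arrays was not tested.

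**Figure D3:**
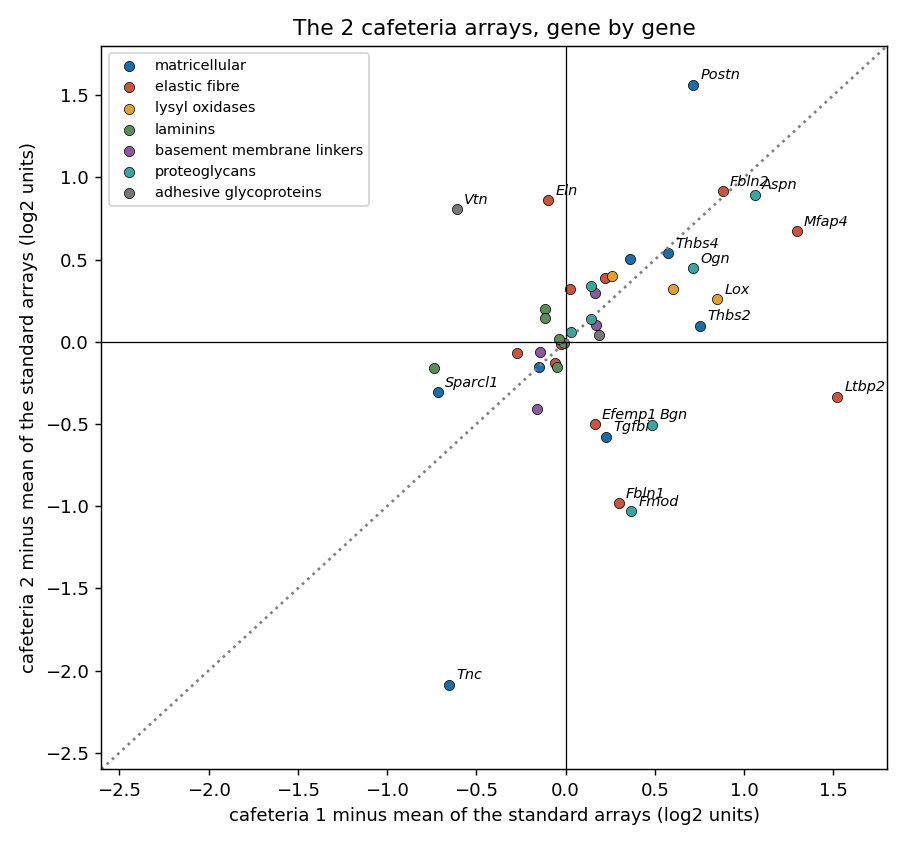
Log2 level of each of the 41 genes on cafeteria replicate 2 (y axis) and on cafeteria replicate 1 (x axis), each minus the mean of the 3 standard arrays, coloured by role; the dotted line marks equal values. Both axes share the same standard mean, so the spread along the line is not independent evidence; 19 genes lie above 0 on both axes, 11 below on both and 11 on opposite sides, among them Bgn, Fmod, Fbln1, Ltbp2, Eln and Vtn.

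Fibroblasts are known to make much of this matrix. The mean of 11 fibroblast markers was 9.81 and 9.80 in cafeteria samples, against 9.58, 9.84 and 9.48 in standard samples, with 5 higher and 6 lower. Pdgfra, a defining fibroblast receptor, read 10.34 and 10.54 in cafeteria samples, against 10.56, 10.55 and 10.54 in standard samples. Pi16, a marker of fat progenitor cells, read 10.34 and 10.79 in cafeteria samples, against 9.60, 9.76 and 10.01 in standard samples, so the diets did not overlap. The mean of 13 macrophage markers was 9.67 and 9.35 in cafeteria samples, against 9.89, 9.86 and 9.52 in standard samples.

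Standard replicate 3 was the highest array for 8 of the 41 genes and the lowest for 8. Cafeteria replicates 1 and 2 were the highest for 15 and 13 genes, and standard replicates 1 and 2 for 2 and 3. The same counts were not made over all genes, so they are not read as a trait of the matrix genes. The genes highest on standard replicate 3 were Sparcl1, Tnc, Spp1, Ltbp1, Lama5, Lamb2, Hspg2 and Agrn. The smooth muscle marker Myh11 read 9.70 and 9.79 in cafeteria samples, against 10.49, 8.95 and 12.03 in standard replicates 1, 2 and 3. The part of smooth muscle in the genes highest on standard replicate 3 was not tested. Without standard replicate 3, 25 of 41 genes had a higher mean in cafeteria samples, 61.0% against 48.7% of all genes, and 12 lay above all remaining standard arrays, 29.3% against 18.7%. With standard replicate 1 left out, which held acinar transcripts, these counts were 22, 53.7% against 48.6% of all genes, and 15, 36.6% against 18.3%. Leaving out standard replicate 3 reversed the direction of 3 of the 41 genes and moved 12 others by more than 1.5 times. For standard replicate 1 these counts were 4 and 8. They were 2 and 19 for cafeteria replicate 1, and 9 and 14 for cafeteria replicate 2, so many differences depend on which cafeteria rat is kept. By construction, leaving out 1 of 2 cafeteria arrays moves a mean more than leaving out 1 of 3 standard arrays. Small differences also change sign easily, and 19 of the 41 were under 0.2 in size. The shares of all genes reversed or moved were not counted. The map of all arrays shows each array beside the standard mean.

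**Figure D4:**
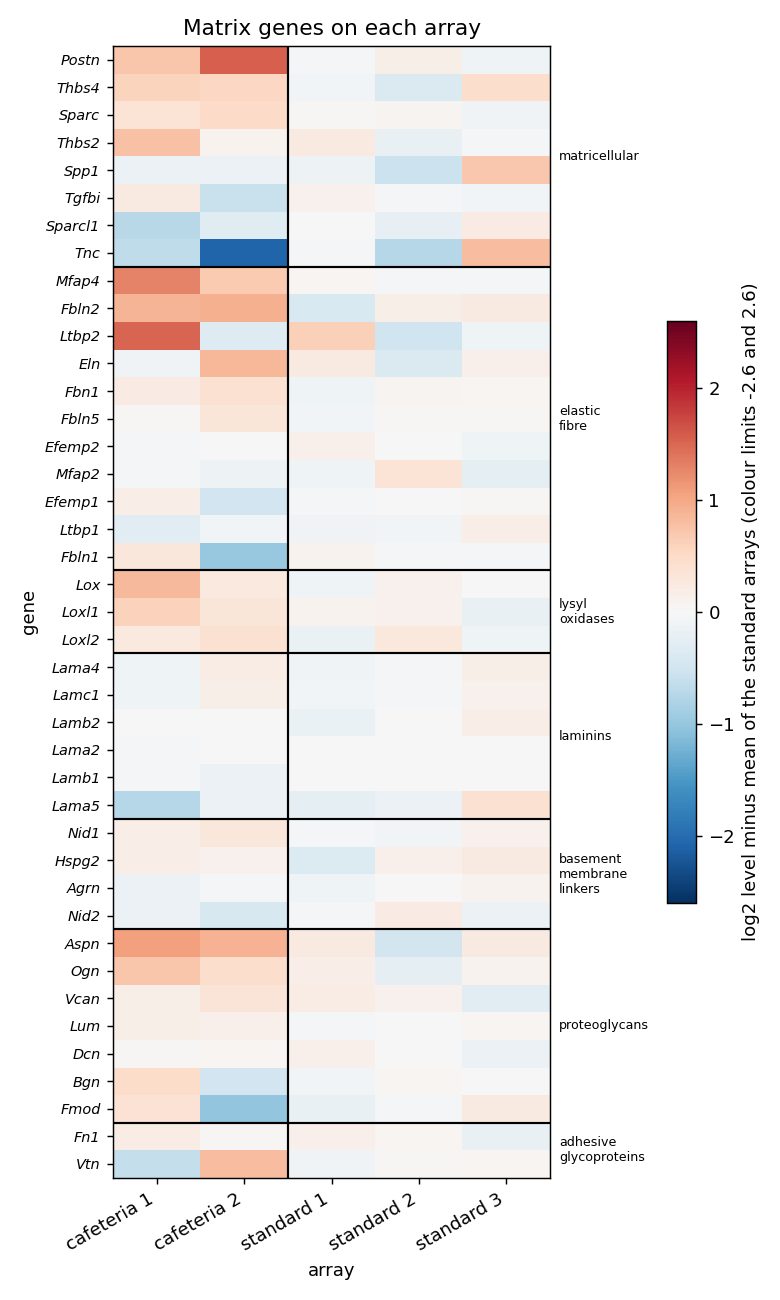
Log2 level of each gene (rows, grouped by role) on each array (columns, cafeteria left of standard) minus the mean of the 3 standard arrays, in colour from blue (lower) to red (higher). Postn, Fbln2, Mfap4, Aspn, Ogn and the lysyl oxidases lie above 0 on both cafeteria arrays. Of these, Lox on cafeteria 2 and Loxl2 on cafeteria 1 are the palest, at 0.26. The laminin block is pale apart from Lama5, and Bgn, Fmod and Fbln1 are red on cafeteria 1 and blue on cafeteria 2.

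Other genes of the same systems were read from lists of further matrix glycoproteins, proteoglycans, matrix receptors and matrix regulators. Of 93 such genes past the filter, 51 had a higher and 42 a lower mean in cafeteria samples, with a median difference of 0.01. At an unadjusted p under 0.05 there were 8 higher, 8.60% against 6.73% of all genes, and 12 lower, 12.9% against 6.88%, and 0 were called after adjustment in limma. Of 31 further glycoproteins 3 were higher (9.68%) and 5 lower (16.1%) at that level, and of 21 further proteoglycans 3 were higher (14.3%) and 5 lower (23.8%), to be read against the same 6.73% and 6.88%. Of 19 receptors 1 was higher and 1 lower, 5.26% each, and of 22 regulators likewise 1 and 1, 4.55% each. These shares describe short lists and carry no test, and the 5 lower in the proteoglycan list include Spn, a leukocyte sialomucin.

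Mfap5, a microfibril protein and partner of Fbn1 and Mfap4, read 11.30 and 11.68 in cafeteria samples, against 10.80, 10.64 and 10.61 in standard samples. Its difference of 0.81 ± 0.14, 1.75-fold, had an adjusted p of 0.246 in limma and no overlap. Emilin1, an elastin-associated glycoprotein, differed by -0.47 ± 0.09, and Mmrn1, multimerin of platelets and endothelium, by -0.37 ± 0.08. Elastic fibre partners thus lay on both sides of 0. Of the proteoglycans, the heparan sulphate carrier Sdc1 differed by 0.63 ± 0.14 and Gpc6 by -0.36 ± 0.08. Spn, which the same list held, is a sialomucin of leukocytes rather than a matrix proteoglycan, and differed by -0.75 ± 0.13. The mean of 9 lymphocyte markers was 5.92 and 5.10 in cafeteria samples, against 6.41, 6.26 and 5.83 in standard samples. All 9 had a lower cafeteria mean, with a median difference of -0.69, and their part in the values of Spn and of Cd44, given next, was not tested.

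Itga7, the laminin-binding integrin alpha-7 chain, read 10.16 and 10.47 in cafeteria samples, against 9.45, 9.76 and 9.67 in standard samples, a difference of 0.69 ± 0.14 without overlap (limma, adjusted p = 0.267). Itgb5, a vitronectin receptor chain, differed by 0.22 ± 0.10, and Cd44, the hyaluronan receptor of leukocytes and other cells, by -0.49 ± 0.18. Among the regulators, the collagen lysyl hydroxylases Plod1 and Plod3 differed by 0.41 ± 0.08 and 0.22 ± 0.08, and the TGF-beta receptor Tgfbr1 by -0.17 ± 0.05. None of these named genes was called in limma, with adjusted p from 0.246 to 0.438.

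Further probe sets were used as a check on the choice of the brightest one. Of the 41 genes, 14 had more than 1 probe set, and 15 of their 20 further probe sets passed the filter. The further probe set had the same direction as the brightest in 14 of these 15, and the exception was Lama4.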

How the data were processed

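The 5 arrays, 2 of cafeteria and 3 of standard samples, take their group from the diet that each title names. The authors deposited log2 expression values, 1 per probe set and array; RMA and the affy package are named, without versions, per the submitters' processing notes. RMA makes the array distributions alike and can hide a shift of most transcripts. Of 31099 probe sets, 57 controls were left out, and 21729 with a mean over all arrays above the 30th percentile (4.28) were fitted.

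The difference of cafeteria minus standard was fitted by lmFit and eBayes (limma 3.58.1, R 4.3.3) and tested on both sides, with Benjamini-Hochberg adjustment over all probe sets and a threshold of 0.05. The fit had 3 residual degrees of freedom, to which eBayes added 1.50 from all fitted probe sets. Its p-values set each difference against the spread between samples of a diet, and the number of arrays limits the precision. Symbols are those of the platform annotation at GEO: 20826 probe sets had 1 symbol, 436 had several and 9780 were without; the RefSeq gene table left the members' symbols as they were. A gene's probe set was that with the highest mean. Named are, per role, up to 4 members with the smallest p, members whose probe sets disagree, and 3 genes per related list. The other members are also given by value. Members and lists were chosen with earlier results of these data known. The fit was tested on simulated arrays. Plots used matplotlib 3.10.9 (Python 3.11.15). Alternatives were other filters, normalizations, variance models, array weights, probe set rules, the replicate number as a block, and each array left out in turn.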

Additional observations from a re-analysis of the deposited data

How the results depend on the processing

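The count of probe sets past the adjusted threshold was 0 with every other filter, normalization and variance model, with array weights and with each array left out; the probe set rules were run for the matrix genes alone. There were 2754 with all arrays at an unadjusted p under 0.05 and 1986 to 4174 when 1 array was left out, the highest without cafeteria replicate 1. Of the matrix genes, 24 were higher in cafeteria samples, and 22 to 25 when 1 array was left out. Genes without overlap numbered 12 to 20 higher and 3 to 10 lower when 1 array was left out, against 12 and 3 with all arrays; with 1 array fewer the absence of overlap is easier by construction, and over all genes it was found for 18.3% to 29.9% higher and 18.2% to 31.7% lower. Leaving out 1 array gave role medians of -0.03 to 0.29 for matricellular genes, -0.015 to 0.19 for elastic fibre genes, 0.32 to 0.60 for lysyl oxidases, -0.08 to 0.03 for laminins, -0.10 to 0.10 for basement membrane linkers, 0.10 to 0.37 for proteoglycans and -0.21 to 0.42 for adhesive glycoproteins.

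The matricellular median was 0.43 without probe sets ending in _s_at, _x_at or _a_at, which drops Spp1. Lama4 differed by -0.13 as the mean of its probe sets and by -0.30 on the second. When 1 array was left out, Lama4 ranged from -0.12 to 0.20, Lama2 from -0.040 to 0.014, Hspg2 from -0.044 to 0.25 and Vtn from -0.61 to 0.81. The replicate numbers of the titles mark no stated pairing, and deviations of same-numbered samples correlated at 0.08 and -0.04 across probe sets. With the replicate block 0 probe sets passed, 2206 had an unadjusted p under 0.05, 25 matrix genes were higher and the basement membrane linker median was 0.10. Only 5 arrays and 3 residual degrees of freedom limit what could be called.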
